A study of Homo sapiens with 24 samples.

Results

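Small nucleolar RNA (snoRNA) host genes are transcribed as long precursors whose introns are processed into snoRNAs and whose exons are spliced into a separate RNA. The spliced RNAs of 10 such genes were followed here: GAS5, ZFAS1, SNHG1, SNHG5, SNHG6, SNHG8, SNHG12, SNHG15, SNHG16 and SNHG20. They were taken by symbol from a table of 12547 endogenous genes, and all 10 had a row in it. The table held poly(A) RNA sequencing of U2OS, a human osteosarcoma cell line, in a study of how the RNA-binding protein QKI affects mRNA stability. RNA was taken after 0, 4 and 8 h in sodium arsenite (200 µM) together with actinomycin D (5 µg/mL), and each of the 12 groups (4 genotypes at 3 times) had 2 libraries.

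The control genotype, sgNS+EV, carried the guide labelled NS and the construct labelled EV. The second, sgQKI+EV, carried a guide against QKI and the same EV construct. The other two carried the QKI guide with the QKI isoform QKI7, either wild type (sgQKI+QKI7-WT) or in the form labelled △KH (sgQKI+QKI7-△KH), a name that refers to the KH domain through which QKI binds RNA. The 0 h libraries carry the same drug label with a duration of 0 h, so no group at 4 or 8 h was without actinomycin D or without arsenite. The labels do not say whether the lines were clones or pools, or whether the 2 libraries of a group came from separate cultures. The p-values below therefore measure the spread between these libraries, which may be technical.

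Host gene introns carry C/D box snoRNAs, which guide methylation of ribosomal RNA, and H/ACA box snoRNAs, which guide its pseudouridylation. The spliced exons usually lack a long open reading frame, and several, GAS5 among them, are known to be degraded by nonsense-mediated decay when ribosomes translate them. Many host genes begin with a run of pyrimidines like that of ribosomal protein genes, the terminal oligopyrimidine tract through which translation is tied to growth signals. Actinomycin D blocks transcription, so that a spliced RNA falls at the rate at which it is lost. Arsenite is an oxidant that lowers translation initiation. QKI is a STAR-family protein that binds ACUAA-type elements in RNA.

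RefSeq placed 36 small RNA genes inside the 10 hosts on GRCh38.p14, of which 28 were C/D box snoRNAs, 6 H/ACA box snoRNAs, 1 a small Cajal body RNA and 1 had another type of name. GAS5 (growth arrest-specific 5, ENSG00000234741, chromosome 1, 173863901 to 173869045, minus strand) held 11 of them. SNHG1 (ENSG00000255717, chromosome 11, 62851978 to 62855885, minus strand) held 9. SNHG12 (ENSG00000197989, chromosome 1, 28578538 to 28582983, minus strand) held 4, and 3 each lay in ZFAS1 (ENSG00000177410, chromosome 20, 49278178 to 49289260, plus strand) and SNHG16 (ENSG00000163597, chromosome 17, 76557764 to 76565348, plus strand). SNHG5 (ENSG00000203875, chromosome 6, 85677007 to 85678733, minus strand) held 2, SNORD50A and SNORD50B. The remaining 4 hosts held 1 each: SNORD87 in SNHG6, SNORA24 in SNHG8 (ENSG00000269893, chromosome 4, 118278762 to 118279823, plus strand), SNORA9 in SNHG15 (ENSG00000232956, chromosome 7, 44983023 to 44986696, minus strand) and SCARNA16 in SNHG20 (ENSG00000234912, chromosome 17, 77088643 to 77094986, plus strand).

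The start regions are shown because the pyrimidine tract is the sequence feature these genes are known for. The 60 bases below run from 30 before to 30 after 1 annotated start of each gene on GRCh38.p14. For ZFAS1 (window 49278612 to 49278671) and SNHG12 (28581844 to 28581903) that start lies inside the gene span given above. For the others it is the first base of that span in the direction of transcription. Capitals mark the longest run of C and T within 20 bases of the start on either side, or the first of equally long runs.
GAS5: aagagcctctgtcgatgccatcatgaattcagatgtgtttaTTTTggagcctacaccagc
ZFAS1: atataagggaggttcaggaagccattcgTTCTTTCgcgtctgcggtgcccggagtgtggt
SNHG1: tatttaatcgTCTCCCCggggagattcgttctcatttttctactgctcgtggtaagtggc
SNHG5: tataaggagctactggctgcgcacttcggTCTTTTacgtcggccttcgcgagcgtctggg
SNHG8: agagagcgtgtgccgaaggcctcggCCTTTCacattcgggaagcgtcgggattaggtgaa
SNHG12: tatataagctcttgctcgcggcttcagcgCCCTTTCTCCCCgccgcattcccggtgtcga
SNHG16: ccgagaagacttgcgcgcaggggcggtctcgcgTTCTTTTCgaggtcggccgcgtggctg
SNHG20: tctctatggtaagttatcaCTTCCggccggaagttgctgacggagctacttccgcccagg
In 6 of these 8 windows the run was 6 bases or longer, against 36.6% of the windows of all measured genes and 86.4% of 81 windows of ribosomal protein genes. In 5 of the 6 the marked run began within 5 bases of the annotated start. The marked run of SNHG1 began 20 bases before the start and ended outside the annotated transcript. A second SNHG1 run of the same length, TTTTTCT, began at base 5 of that transcript. The longest, 12 bases in SNHG12, began 1 base before the annotated start, and 4.5% of measured genes had a run at least as long. SNHG16 had 8 bases (17.3% of measured genes), ZFAS1 7 (24.6%) and GAS5 4 (77.2%), each at the start used here. Other starts of these genes were not searched, so a short run here does not show that a gene lacks the tract. ZFAS1 and SNHG16 shared the hexamer TTCTTT inside the run, which 1.2% of measured windows held within 20 bases of the start on the transcribed strand. As the hexamer was picked as shared by these runs, the 1.2% is a description only. A run is a description of these letters around one annotated start and not a mapped tract. SNHG6 and SNHG15 had no entry among the start regions.

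The bases around each ACTAAC or ACTAAT are shown because these letters match the core of the element QKI is known to bind. They were searched on the sense strand of the longest GENCODE 29 basic transcript of each host, and capitals mark the match.
SNHG1: ctgagaggtactACTAACcaataacctgct
SNHG5: aatggaaaatccACTAACcagccttgtaat
SNHG12: aagaataaaaagACTAATaaaagta
SNHG16: ccttgacacgacACTAACatacttggcttc
Each of these 4 transcripts held 1 match, at position 657 in SNHG1, 1011 in SNHG5, 1859 in SNHG12 and 125 in SNHG16. No match was in the transcripts of the other 6 hosts. A match was present in 48.4% of 11958 measured genes, and in 23.5%, 16.5%, 26.7% and 48.8% of genes within 25% of the length of SNHG1, SNHG5, SNHG12 and SNHG16.

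The deposited values were spike-in-normalised, so that a fall in total RNA was kept. Summed over endogenous genes they ranged from 690400 to 1368000 per library, against 11480 to 11940 for the ERCC spike-in RNAs. Fewer cells and less RNA per cell cannot be told apart in such bulk libraries. Whether the values are per transcript length is not given in the sources used here, so levels are not compared between genes. Replicate libraries correlated across genes at 0.9889 to 0.9982, with both 4 h libraries of sgQKI+QKI7-WT the least alike. QKI itself was at 60.0 and 48.2 in sgNS+EV and at 36.0 and 32.7 in sgQKI+EV at 0 h (log2 difference −0.64), and at 60.4 and 46.3 with QKI7-WT and 47.6 and 50.2 with QKI7-△KH. Of the markers listed to check the line, RUNX2, COL1A1, SPARC and VIM were measured in all 24 libraries, and COL1A2, ALPL, SP7 and BGLAP had no row. Of the epithelial markers only EPCAM had a row, at 3.08 to 8.39, although the cells are labelled epithelial, and the 7 blood and hepatocyte markers had none.

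The first question was how the spliced host RNAs fared over 8 h of chase. In control cells the 10 hosts spread from no measurable loss to a loss of most of the 0 h level. GAS5 and SNHG6 stood at their starting level, ZFAS1, SNHG5, SNHG8 and SNHG1 kept 78.0 to 86.0% of it, SNHG12, SNHG15 and SNHG16 kept 50.8 to 60.7%, and SNHG20 kept 24.5%. Over all genes the median was 58.5%.

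GAS5 was at 252 and 281 spike-in-normalised units at 0 h, 212 and 257 at 4 h, and 254 and 279 at 8 h in sgNS+EV. The 0 h and 8 h libraries overlapped, and the log2 change over 8 h was 0.00 (SE 0.11, limma adjusted p = 0.991). SNHG6, the host of SNORD87 (ENSG00000245910, chromosome 8, 66921690 to 66925541, minus strand), was at 436 and 464 at 0 h, 408 and 377 at 4 h, and 407 and 445 at 8 h, again with overlap (log2 change −0.08, SE 0.08, adjusted p = 0.365). These 2 changes lay above those of 97.7% and 96.1% of all genes.

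ZFAS1, which is transcribed head to head with ZNFX1, was at 157 and 167 at 0 h and at 136 and 143 at 8 h. SNHG5 went from 85.6 and 82.5 to 64.8 and 74.9, and SNHG8 from 202 and 225 to 165 and 169. SNHG1, the host of SNORD22 and SNORD25 to SNORD31 among others, went from 133 and 153 to 110 and 117. In none of these 4 did the 0 h and 8 h libraries overlap, and all 4 fell by a small amount: log2 changes of −0.22 for ZFAS1 (SE 0.08, adjusted p = 0.0203), −0.27 for SNHG5 (SE 0.10, adjusted p = 0.0203), −0.35 for SNHG8 (SE 0.12, adjusted p = 0.00724) and −0.33 for SNHG1 (SE 0.09, adjusted p = 0.00128). Here and below, overlap of libraries or its lack is a description only, as the share of all genes without overlap is not given. The calls were not equally firm. That of ZFAS1 was lost without 0 h replicate 2 or without 8 h replicate 1 of sgNS+EV, that of SNHG5 without 0 h replicate 1 or 8 h replicate 1, and that of SNHG8 without 0 h replicate 2, with adjusted p of up to 0.127, 0.221 and 0.0751.

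SNHG12 went from 26.3 and 35.5 at 0 h to 17.4 and 20.1 at 8 h in sgNS+EV (log2 change −0.68, SE 0.12, adjusted p = 3.44e-05). SNHG15 went from 39.3 and 41.1 to 21.1 and 23.5 (−0.82, SE 0.16, adjusted p = 5.21e-05). Both changes lay near the all-gene median of −0.70, with 51.7% of all genes below SNHG12 and 38.6% below SNHG15. SNHG16, the host of the SNORD1 snoRNAs, was at 181 and 181 at 0 h, 111 and 111 at 4 h, and 92.4 and 91.4 at 8 h (−0.97, SE 0.07, adjusted p = 4.95e-11). SNHG20 was at 7.21 and 7.29 at 0 h, 2.19 and 3.15 at 4 h, and 1.85 and 1.69 at 8 h (−1.57, SE 0.16, adjusted p = 1.4e-08). The replicates of SNHG16 were nearly equal, and SNHG20 had lost most of its signal by 4 h. Of all genes, 27.4% had a lower change than SNHG16 and 5.7% a lower change than SNHG20.

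**Figure D1:**
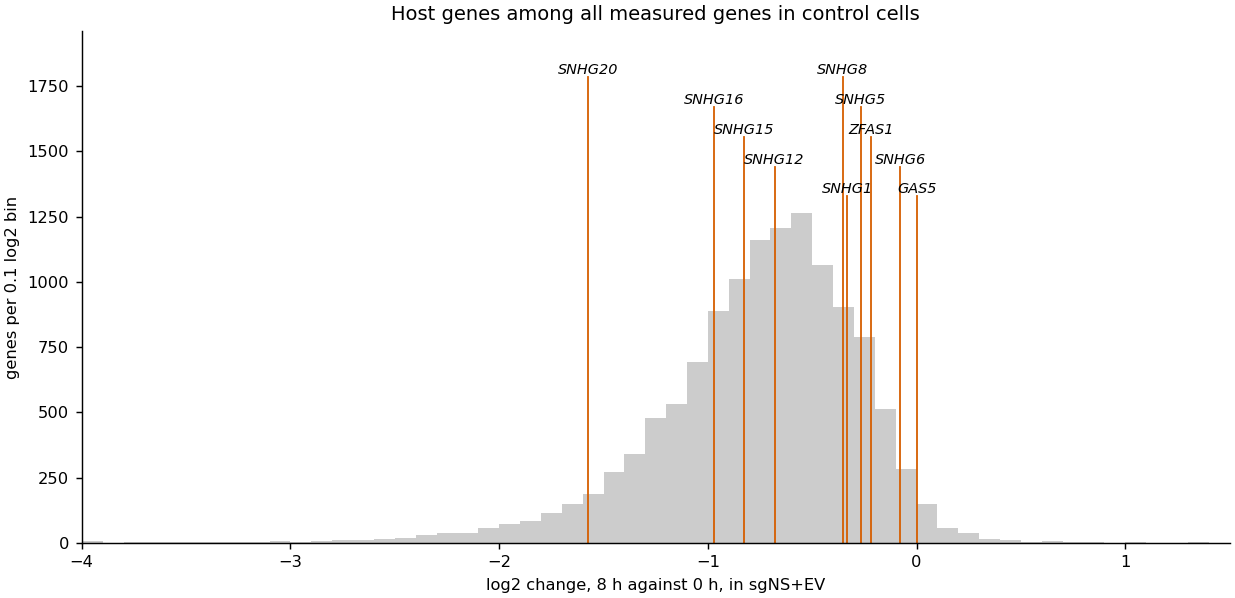
The histogram counts all 12547 genes by their log2 change from 0 to 8 h in sgNS+EV, and vertical lines mark the 10 snoRNA host genes. GAS5 (0.00) and SNHG6 (−0.08) lie at the right edge and SNHG20 (−1.57) in the left tail, on either side of the all-gene median of −0.70.

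In sgNS+EV, 8 of the 10 hosts thus fell and 0 rose in limma at an adjusted p under 0.05 (0 also rose at an unadjusted p under 0.05). Among all genes 88.2% fell and 0.383% rose, so a count of 8 is near the background and is no result about the hosts. The median change of the 10 hosts was −0.34 against −0.70 over all genes, and 7 of 10 lay above the all-gene median. The counts were 8 lower in sgQKI+EV (90.5% of all genes), 9 in sgQKI+QKI7-△KH (90.6%) and 8 in sgQKI+QKI7-WT (90% of all genes), and 0 higher in limma in each, also at an unadjusted p under 0.05, while 0.422%, 0.486% and 0.438% of all genes rose. In each of these 3 genotypes 8 of 10 hosts lay above the all-gene median, with host medians of −0.46, −0.57 and −0.38 against −0.82, −0.77 and −0.77.

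**Figure D2:**
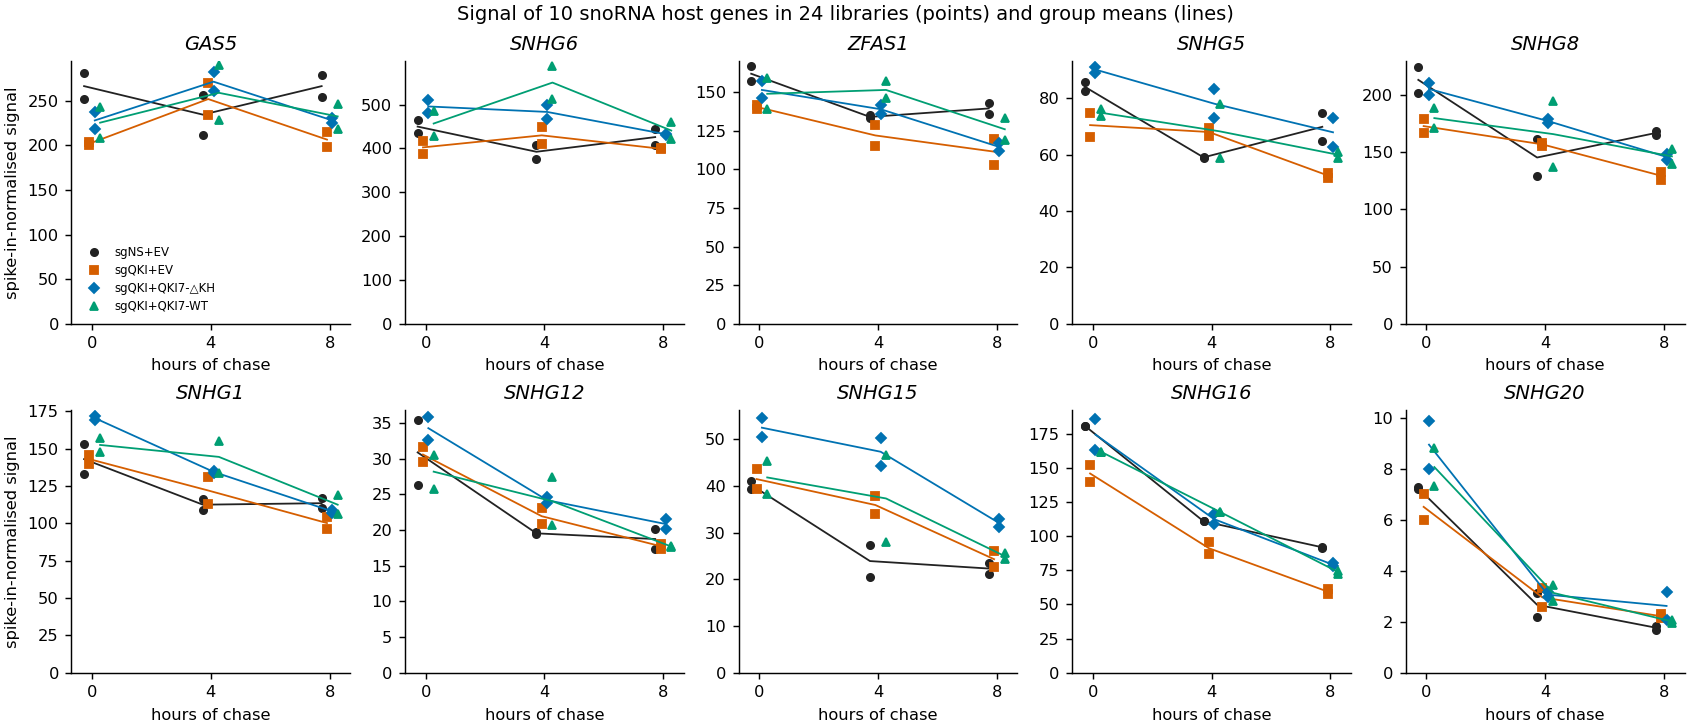
Each panel plots 1 host gene, with hours of chase on the x axis, spike-in-normalised signal on the y axis from 0, points for the 2 libraries of each group and lines through the group means. GAS5 ends where it began in all 4 genotypes, while SNHG16 falls from 181 to about 92 in sgNS+EV and SNHG20 from about 7.25 to below 2.

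In the other genotypes GAS5 and SNHG6 again kept the highest shares and SNHG16 and SNHG20 the lowest, while hosts between them changed places. GAS5 at 8 h was at 102% of its 0 h mean in sgQKI+EV, 100% with QKI7-△KH and 103% with QKI7-WT. SNHG6 was at 99.3%, 87.1% and 96.5%, and its fall passed the test only with QKI7-△KH (log2 change −0.20, SE 0.08, adjusted p = 0.0294). That SNHG6 call was lost in 3 of 4 fits that left out 1 library (without 0 h replicate 1, 8 h replicate 1 or 8 h replicate 2), with adjusted p of up to 0.16. SNHG16 kept 40.8% in sgQKI+EV, 45.4% with QKI7-△KH and 45.5% with QKI7-WT, and SNHG20 kept 34.0%, 29.3% and 24.9%. In these genotypes the calls of SNHG1, SNHG5, SNHG12, SNHG15, SNHG16 and SNHG20 were kept whichever single library was left out. With QKI7-WT the calls of ZFAS1 and SNHG8 were lost without 0 h replicate 2 or 8 h replicate 2 (adjusted p up to 0.17 and 0.148).

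**Figure D3:**
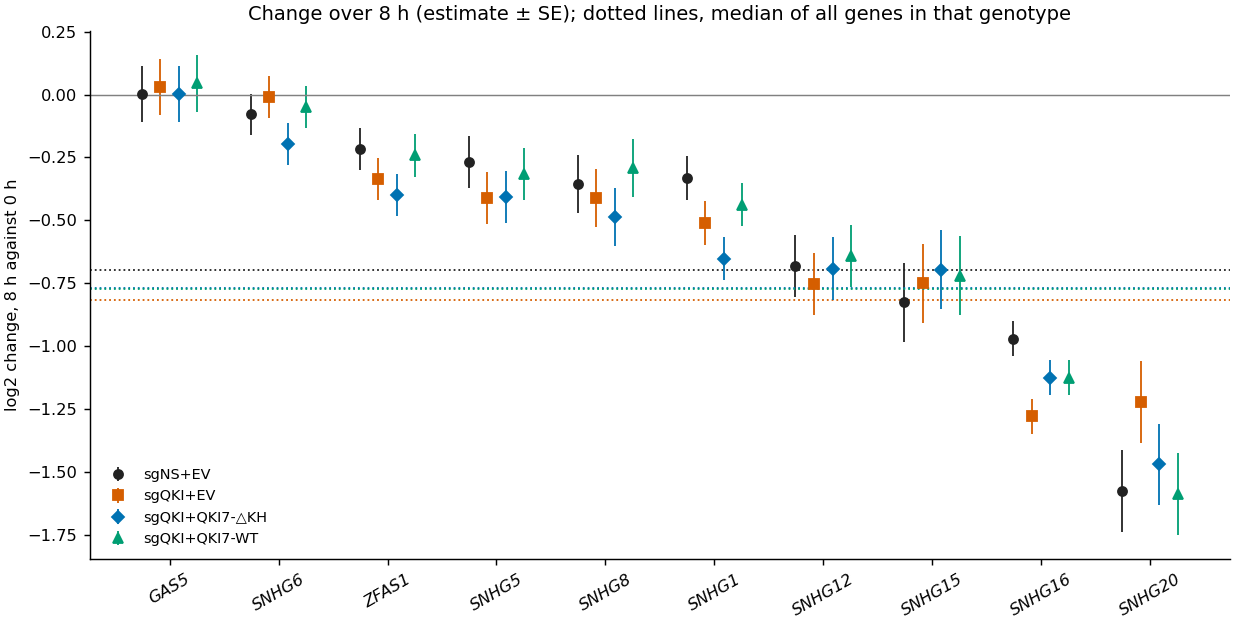
For each host gene the points give the log2 change from 0 to 8 h in the 4 genotypes with its standard error, and dotted lines give the median of all 12547 genes in the same genotype. GAS5 sits between 0.00 and 0.04, above all dotted lines (−0.70 to −0.82), and SNHG16 and SNHG20 sit below all of them.

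The hosts also spread when the scaling factor of a library hardly entered. When each host was taken relative to the mean of the other 9 in the same library, a measure added after the data were seen, GAS5 rose by 0.70 log2 units from 0 to 8 h over the 4 genotypes and SNHG6 by 0.58. SNHG20 fell by 1.38 and SNHG16 by 0.59 on the same measure. The sign was the same in 4 of 4 genotypes for these hosts, as for every other host but SNHG1 (3 of 4). The 10 values are tied, since each is taken against the other 9 and they add up to 0, so the fall of SNHG20 by itself raises the values of all the others. The values of ZFAS1 (0.34), SNHG5 (0.28), SNHG8 (0.24), SNHG1 (0.13), SNHG12 (−0.13) and SNHG15 (−0.18) are therefore given as a description. An exact two-sided permutation test within genotype gave p = 0.00154, the smallest its 1296 permutations allow, for 7 of the 10 hosts, and 0.00309 for SNHG15, 0.0154 for SNHG1 and 0.0231 for SNHG12. These p-values are unadjusted, and as the 10 values are tied they do not set single hosts apart.

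The direction of most single hosts did rest on the scale. On the deposited spike-in scale ZFAS1, SNHG1, SNHG5 and SNHG8 fell in sgNS+EV, whereas after quantile normalisation, or after dividing by library totals without ribosomal RNA, their changes were above 0. These scalings moved the median change of all genes from −0.70 to 0.05 and −0.29, so a host change is best read against that median. Relative to it GAS5 was higher by 0.70 on the deposited scale, 0.37 after quantile normalisation and 0.74 with library totals. On the same 3 scales SNHG16 stood at −0.27, −0.54 and −0.23 from that median and SNHG20 at −0.88, −0.77 and −0.94. GAS5 had the highest change of the 10 hosts under all 3 scalings in all 4 genotypes, and SNHG16 or SNHG20 the lowest.

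**Figure D4:**
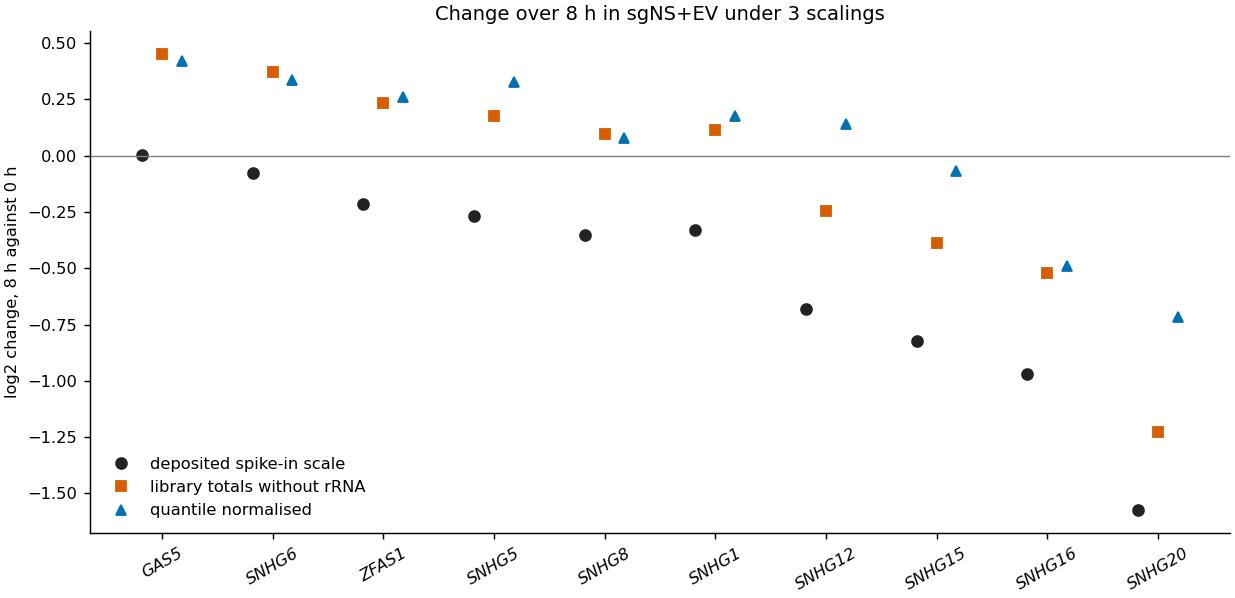
The log2 change of each host gene from 0 to 8 h in sgNS+EV is plotted on the deposited spike-in scale, with library totals without ribosomal RNA and after quantile normalisation. GAS5 moves from 0.00 to 0.45 and 0.42 and SNHG20 from −1.57 to −1.23 and −0.72, and SNHG16 and SNHG20 stay clearly below 0 on all 3 scales.

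The fall was not even over the chase. On the deposited scale the hosts in sgNS+EV had fallen by 4 h and 2 of them fell further to 8 h. After quantile normalisation 2 hosts passed as lower by 4 h, and 7 as higher and 0 as lower from 4 to 8 h. With library totals the counts were 4 lower by 4 h, and 6 higher and 0 lower thereafter. Of all 12547 genes, quantile normalisation gave 2928 higher and 2386 lower by 4 h, and library totals 929 and 3188. From 4 to 8 h the numbers over all genes are not given on these scales, so the host counts there are a description. On the deposited scale 9 of 10 hosts had fallen at 4 h (59.8% of all genes), all but GAS5 (−0.19, SE 0.11, limma adjusted p = 0.151). The host median was −0.53 against −0.31 over all genes. Between 4 and 8 h only SNHG16 (−0.26, adjusted p = 0.00225) and SNHG20 (−0.39, adjusted p = 0.0391) fell further (64.9% of all genes, with 1.46% rising), and the host median was 0.03 against −0.39. The SNHG20 call of that interval was lost without 4 h replicate 2, 8 h replicate 1 or 8 h replicate 2 (adjusted p up to 0.374), and the SNHG6 call over the first 4 h (−0.20, adjusted p = 0.0444) without 0 h replicate 1, 0 h replicate 2 or 4 h replicate 2 (up to 0.263). The calls of ZFAS1 and SNHG1 over the first 4 h were lost without 0 h replicate 2 (0.0752 and 0.0648).

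SNHG5 and SNHG15 are given at each time in sgQKI+EV and sgNS+EV, on the deposited scale. SNHG5 was at 74.8 and 66.1 at 0 h, 69.4 and 66.6 at 4 h and 51.8 and 53.4 at 8 h, while in sgNS+EV it had reached 59.1 and 58.9 by 4 h and stood at 64.8 and 74.9 at 8 h. SNHG15 was at 43.5 and 39.4, then 37.8 and 34.0, then 22.6 and 26.0, against 20.5 and 27.3 by 4 h in sgNS+EV. For both hosts the later interval held most of the fall in sgQKI+EV and the earlier one in sgNS+EV on this scale. The SNHG5 change from 4 to 8 h in sgQKI+EV was 0.12 after quantile normalisation and 0.038 with library totals, so its later fall rested on the spike-in scale.

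Over the first 4 h, 5 hosts fell in sgQKI+EV (63.8% of all genes): ZFAS1, SNHG1, SNHG12, SNHG16 and SNHG20. GAS5 rose from 200 and 204 to 270 and 234 (log2 change 0.31, SE 0.11, adjusted p = 0.0185, with 0.885% of all genes rising), a call lost without 0 h replicate 1, 0 h replicate 2 or 4 h replicate 1 (adjusted p up to 0.177). The calls of ZFAS1 and SNHG1 were lost without 0 h replicate 1, 0 h replicate 2 or 4 h replicate 2 (up to 0.294 and 0.303). In the later interval 7 hosts fell (79.2% of all genes, with 0.143% rising): GAS5, SNHG1, SNHG5, SNHG8, SNHG12, SNHG15 and SNHG16. Of these, the calls of SNHG5, SNHG15 and SNHG16 (−0.36, −0.55 and −0.61) held in all 4 fits that left out 1 library. The others were lost without sgQKI+EV 4 h replicate 1, among further libraries, with adjusted p of up to 0.24 for GAS5, 0.126 for SNHG1, 0.156 for SNHG8 and 0.224 for SNHG12.

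The difference in each interval between sgQKI+EV and sgNS+EV was tested in the same model, a comparison chosen after the data were seen. For the first 4 h the change of GAS5 was higher in sgQKI+EV by 0.50 (SE 0.16, adjusted p = 0.0475), the 1 host called (1.8% of all genes were higher and 8.89% lower). SNHG5, SNHG8 and SNHG15 had differences of 0.45, 0.42 and 0.54 with adjusted p of 0.0504, 0.0832 and 0.1. From 4 to 8 h the change was lower in sgQKI+EV for SNHG5 (−0.60, SE 0.15, adjusted p = 0.0265) and SNHG16 (−0.35, SE 0.10, adjusted p = 0.032), where 11.6% of all genes were lower. Both intervals use the same 4 h libraries, so a high 4 h value in 1 genotype raises the first difference and lowers the second. The GAS5 call was lost in 7 of 8 fits that left out 1 library (all but sgNS+EV 0 h replicate 1, adjusted p up to 0.222). That of SNHG5 was lost in 6 of 8 (all but sgNS+EV 8 h replicate 1 and sgQKI+EV 4 h replicate 2) and that of SNHG16 in 7 of 8 (all but sgQKI+EV 4 h replicate 2), each with adjusted p of up to 0.191.

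With QKI7-△KH, 4 hosts had fallen by 4 h (SNHG1, SNHG12, SNHG16 and SNHG20, with 73.6% of all genes lower), and 5 fell from 4 to 8 h (ZFAS1, SNHG1, SNHG8, SNHG15 and SNHG16, with 58.2% lower and 0.462% higher). GAS5 rose from 238 and 218 to 261 and 282 by 4 h (0.25, SE 0.11, adjusted p = 0.0475, with 0.406% of all genes rising), and this call was lost whichever of the 4 libraries was left out (adjusted p 0.0549 to 0.225). The SNHG8 call from 4 to 8 h was lost in the same 4 of 4 way (0.0802 to 0.191), that of ZFAS1 without 4 h replicate 2 or 8 h replicate 1 (up to 0.076) and that of SNHG15 without 4 h replicate 2 (0.0601).

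With QKI7-WT, SNHG16 (−0.45) and SNHG20 (−1.13) had fallen by 4 h (42.9% of all genes) and SNHG6 rose from 429 and 485 to 589 and 512 (0.27, SE 0.08, adjusted p = 0.0118, with 2.66% rising). That SNHG6 call was lost without 0 h replicate 1 or 4 h replicate 1 (adjusted p up to 0.148), and without 4 h replicate 2 the number of hosts called in that interval was 7 instead of 3. Thereafter 7 hosts fell (83.7% of all genes, with 0.271% rising): ZFAS1, SNHG1, SNHG6, SNHG12, SNHG15, SNHG16 and SNHG20. The 4 h libraries of QKI7-WT differed most from each other, as in SNHG15 at 28 and 46.6, and without 4 h replicate 2 the calls of SNHG12, SNHG15 and SNHG20 from 4 to 8 h were lost (adjusted p up to 0.127, 0.266 and 0.102). The call of SNHG20 was also lost without 8 h replicate 2, as was that of ZFAS1 (up to 0.0964).

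The second question was how cells with the QKI guide differed from control cells. SNHG16 was the host lower at all 3 times. At 0 h it was at 152 and 140 in sgQKI+EV and at 181 and 181 in sgNS+EV. At 4 h it was at 95.6 and 86.9 against 111 and 111, and at 8 h at 61.0 and 57.9 against 92.4 and 91.4. The libraries overlapped at no time, and the log2 differences were −0.31 (SE 0.07, adjusted p = 0.0229), −0.28 (SE 0.07, adjusted p = 0.00403) and −0.62 (SE 0.07, adjusted p = 7.35e-06). At 8 h only 1% of all genes had a lower difference.

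At 0 h SNHG16 was the 1 host that passed (1.37% of all genes were lower and 0.183% higher), and the call was lost without sgNS+EV 0 h replicate 1, sgNS+EV 0 h replicate 2 or sgQKI+EV 0 h replicate 2 (adjusted p up to 0.39). With library totals it was −0.20 (adjusted p = 0.0849). GAS5 at 0 h was at 200 and 204 against 252 and 281, without overlap, and did not pass (−0.40, SE 0.11, adjusted p = 0.078). At 4 h SNHG15 was higher in sgQKI+EV, at 37.8 and 34.0 against 20.5 and 27.3 (0.58, SE 0.16, adjusted p = 0.00626). Of all genes 6.74% were higher and 34% lower at that time. The SNHG15 call was lost without sgNS+EV 4 h replicate 1 or sgQKI+EV 4 h replicate 1 (adjusted p up to 0.135), and that of SNHG16 at 4 h without sgQKI+EV 4 h replicate 2 (0.0558).

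At 8 h, 5 hosts were lower in sgQKI+EV, again among 34% of all genes, and 0 were higher in limma (0 also at an unadjusted p under 0.05, with 0.287% of all genes higher). GAS5 was at 215 and 198 against 254 and 279 (−0.37, SE 0.11, adjusted p = 0.0154). ZFAS1 was at 120 and 103 against 136 and 143 (−0.32, SE 0.08, adjusted p = 0.00594). SNHG5 was at 51.8 and 53.4 against 64.8 and 74.9 (−0.40, SE 0.10, adjusted p = 0.00622) and SNHG8 at 133 and 126 against 165 and 169 (−0.36, SE 0.12, adjusted p = 0.0204). Libraries of both genotypes did not overlap in any of these. The median over all genes was −0.20, and relative to it the differences were −0.17 for GAS5, −0.13 for ZFAS1, −0.20 for SNHG5, −0.16 for SNHG8 and −0.43 for SNHG16. The SNHG16 call held in all 4 fits that left out 1 library. That of SNHG8 was lost in all 4 (adjusted p 0.0508 to 0.135), those of GAS5 and ZFAS1 without sgNS+EV 8 h replicate 2 or sgQKI+EV 8 h replicate 2 (up to 0.142 and 0.136) and that of SNHG5 without sgNS+EV 8 h replicate 2 (0.11).

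**Figure D5:**
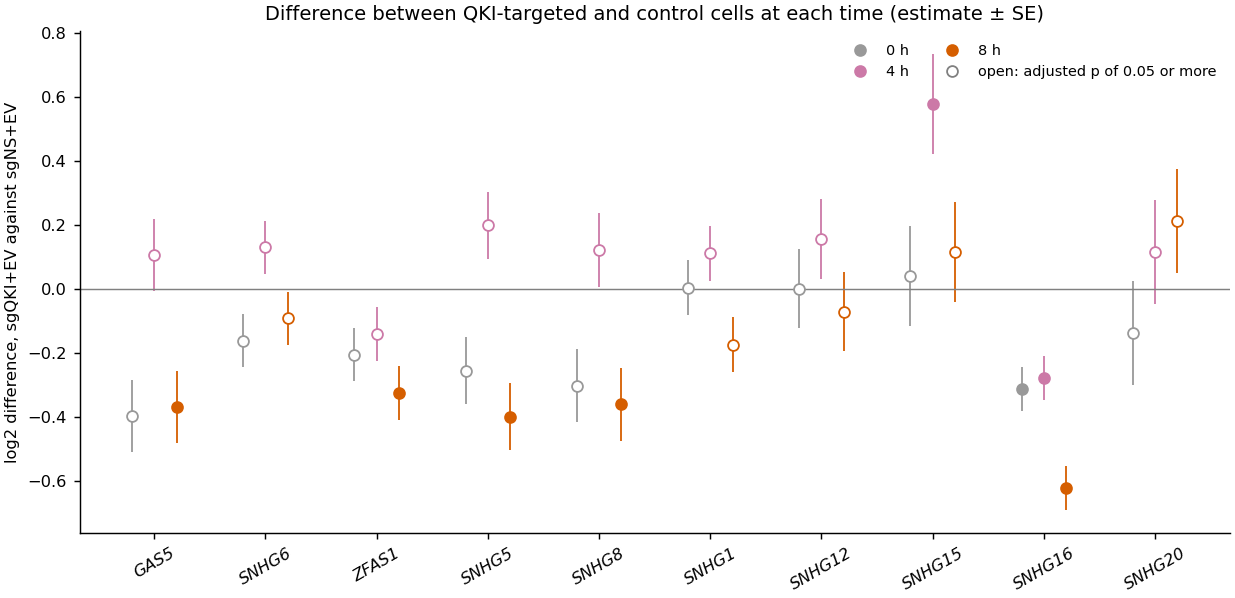
For each host gene the points give the log2 difference of sgQKI+EV against sgNS+EV at 0, 4 and 8 h with its standard error, filled where the adjusted p was under 0.05. SNHG16 is filled and below 0 at all 3 times (−0.31, −0.28 and −0.62), and SNHG15 at 4 h (0.58) is the 1 filled point above 0.

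No host passed in limma between these genotypes in its change over the whole 8 h with all groups in the fit, and 1 host, SNHG16, passed as lower when only the groups compared entered it. The difference for SNHG16 was −0.31 (SE 0.10, adjusted p = 0.139), and it was the 1 host with an unadjusted limma p under 0.05, as 17% of all genes had. For the other 9 hosts the difference lay between −0.18 (SNHG1) and 0.35 (SNHG20). Among all genes 0.669% were lower and 0.00797% higher. These differences and the 8 h comparison above share the same 8 h libraries.

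The third question was how QKI7-WT and QKI7-△KH differed among the cells carrying both the QKI guide and QKI7. The QKI signal itself was higher with QKI7-WT at 4 h (log2 difference 0.76, limma adjusted p = 0.0117). It did not pass at 0 h (adjusted p = 0.587) or at 8 h (adjusted p = 0.975). No host passed in limma between sgQKI+QKI7-WT and sgQKI+QKI7-△KH at 0, 4 or 8 h, or in the change over 8 h. At an unadjusted limma p under 0.05 there were 2 hosts at 0 h (25.9% of all genes), 2 at 4 h (23.9%), 1 at 8 h (26.1%) and 0 in the change (0.956%). Without 4 h replicate 2 of QKI7-WT 4 hosts passed at 4 h. The share of all genes called was 3.71% lower and 0.0478% higher at 0 h, 0.159% lower and 0.821% higher at 4 h, 4.84% lower and 0.0478% higher at 8 h, and 0% in either direction for the change. SNHG15 was at 38.3 and 45.3 with QKI7-WT against 54.5 and 50.4 with QKI7-△KH at 0 h, and at 25.6 and 24.3 against 31.2 and 32.8 at 8 h. Neither pair overlapped, and the differences were −0.32 (SE 0.16, adjusted p = 0.194) and −0.35 (SE 0.16, adjusted p = 0.168). SNHG16 differed by −0.10 (SE 0.07) at both times, with adjusted p of 0.333 and 0.339.

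With QKI7-WT against sgQKI+EV at 0 h no host passed in limma either, where 0.0239% of all genes were lower and 0.0638% higher. At an unadjusted limma p under 0.05 there were 2 hosts, SNHG6 and SNHG16, and 4.75% of all genes. SNHG16 was at 162 and 162 with QKI7-WT, between the libraries of sgQKI+EV (152 and 140) and those of sgNS+EV (181 and 181), and the difference to sgQKI+EV was 0.15 (SE 0.07, adjusted p = 0.99). With QKI7-△KH it was at 186 and 163.

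Across the 12 groups the hosts differed in how much they varied. Group means of GAS5 ran from 202 (sgQKI+EV at 0 h) to 272 (QKI7-△KH at 4 h), a 1.34-fold range, and in all 11 pairs of neighbours in the order of group means the libraries overlapped. SNHG6 ran 1.4-fold, from 392 (sgNS+EV at 4 h) to 551 (QKI7-WT at 4 h), with 10 of 11 neighbour pairs overlapping. ZFAS1 ran 1.45-fold, SNHG8 1.65-fold, SNHG1 1.7-fold, SNHG5 1.71-fold, SNHG12 1.94-fold and SNHG15 2.35-fold, with 8 or 9 overlapping pairs. SNHG16 ran 3.04-fold, from 59.5 (sgQKI+EV at 8 h) to 181 (sgNS+EV at 0 h), and 3 of its 11 neighbour pairs overlapped. SNHG20 ran 5.05-fold, from 1.77 (sgNS+EV at 8 h) to 8.96 (QKI7-△KH at 0 h), with 6 overlapping.

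Over the same 12 group means the 45 pairs of hosts had Pearson correlations from −0.198 to 0.955, with a median of 0.74, where all pairs share the libraries and their scaling. GAS5 stood apart with a median of 0.15 to the others, SNHG6 had 0.487 and SNHG16 0.892. The genes outside the 10 with the profile most like the host mean were TOMM6 (r = 0.9926), CCAR2 (0.99), DNAJA3 (0.989), VOPP1 (0.9885) and EGLN2 (0.9878), out of all measured genes. The nearest single genes were SPNS1 for GAS5 (r = 0.9405), C11orf98 for SNHG6 (0.9459), PTGR1 for ZFAS1 (0.9678), SSC4D for SNHG5 (0.9681), RPP25L for SNHG8 (0.9739), NDRG1 for SNHG1 (0.9916), EDC4 for SNHG12 (0.9958), PUS1 for SNHG15 (0.9841), NPEPPS for SNHG16 (0.9957) and FAM53B for SNHG20 (0.993). A high maximum over so many genes and 12 points is a description only.

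The other genes of the pathway were taken from lists. Of 21 other noncoding hosts 15 had a row, and 12 of these fell over 8 h in sgNS+EV, where 88.2% of all genes did, with a median of −0.38, close to the −0.34 of the 10 hosts. They were led by SNHG4 (−1.41), SNHG3 (−1.29), SNHG10 (−0.96) and SNHG7 (−0.77). Of 39 measured protein-coding hosts, mainly ribosomal protein and translation factor genes, 27 fell, against the same 88.2% of all genes, with a median of −0.30 and the largest changes in PPAN (−2.49), WDR43 (−1.88), IPO7 (−1.02) and DKC1 (−0.96). In that list 32 of 39 lay above the all-gene median, as did 7 of the 10 hosts.

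All 21 nonsense-mediated decay factors fell in sgNS+EV, where 88.2% of all genes fell, with a median of −0.62 against −0.70 over all genes, among them PNRC2 (−2.46), SMG8 (−1.95), SMG1 (−1.29) and the release factor gene ETF1 (−1.05). The 6 stress mRNAs known as targets of that pathway, such as GADD45B (−1.41), DDIT3 (−1.09) and ATF3 (−1.07), had a median of −1.03, and 1 of the 6 lay above the all-gene median. Of 15 genes for snoRNP proteins, the partners of snoRNAs, 14 fell (median −0.56), a share near that of all genes, with NAF1 (−1.29), ZNHIT6 (−1.13), DKC1 (−0.96) and GAR1 (−0.79) first. The 10 hosts and the other hosts thus had medians nearer to 0 than the decay factors and the stress mRNAs, where no test between lists was made.

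Between sgQKI+EV and sgNS+EV, 0 of the 94 measured genes of these 5 lists passed in limma at 0 h, where 1.37% of all genes were lower and 0.183% higher. At an unadjusted limma p under 0.05 there were 28, of which 23 were among the 39 protein-coding hosts, and 14.1% of all genes. At 8 h, when 34% of all genes were lower, 28 of 39 protein-coding hosts were lower (median −0.27 against −0.20 over all genes), 5 of 15 other noncoding hosts, 7 of 21 decay factors, 3 of 6 stress mRNAs and 1 of 15 snoRNP genes. SNHG3, at −0.55 (SE 0.07, adjusted p = 2.85e-05), was the noncoding host outside the 10 with the lowest adjusted p there.

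For 4 hosts another measured gene overlaps: ZNFX1 lies opposite ZFAS1, TRNAU1AP opposite SNHG12 and ZBTB37 opposite GAS5, the last without shared exons, while SEC14L1 shares exons and strand with SNHG20. The library kit keeps the strand, but the strand setting of the counting is not given in the sources used here, so reads from such pairs may not be fully separated. The overlapping genes and the hosts changed by different amounts: in sgNS+EV over 8 h ZNFX1 changed by −1.62 while ZFAS1 changed by −0.22, ZBTB37 by −1.03 while GAS5 changed by 0.00, TRNAU1AP by −0.13 (adjusted p = 0.198) while SNHG12 changed by −0.68, and SEC14L1 by −0.82 while SNHG20 changed by −1.57.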

How the data were processed

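Poly(A) RNA of 24 U2OS libraries was sequenced with a stranded kit. Per the submitters' processing notes, STAR, RSEM and GRCh38 were used, while versions, settings, annotation and the spike-in step are not given in the sources used here. The authors deposited 1 table of spike-in-normalised signal on a linear scale with 12585 rows, 38 of them ERCC spike-ins. It is not counts, and its depth is unknown.

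Values were log2-transformed after adding a pseudocount of 1. No gene was removed by the filter (at least 1 in 2 or more libraries). limma 3.58.1 (R 4.3.3, trend) fitted the 12 group means over all 24 libraries, and p-values were adjusted by Benjamini-Hochberg over 12547 genes with a threshold of 0.05, after a test on simulated data. In 23 comparisons, alternatives were quantile normalisation, library totals without ribosomal RNA, a pseudocount of 0.1, no filter, a replicate block, only the groups compared, and leaving out each library. Over 66 pairs of groups the deviations of same-numbered libraries correlated at −0.42 to 0.48 (median −0.02), so the numbers were not taken as pairs. Percentages of a 0 h level are of group means on the linear scale, and a log2 change with a pseudocount understates that of low genes such as SNHG20. The values of 38 rows repeated those of another row, as in near-identical gene copies, and none of these was a host.

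All 10 hosts are named, with up to 4 members of each other list that passed, those with the largest change, the 5 genes most like the host mean and the 1 most like each host. The members and lists were chosen with earlier results of these data known. Sequences are from RefSeq (GRCh38.p14) and GENCODE 29, and figures were drawn with matplotlib 3.10.9.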

Additional observations from a re-analysis of the deposited data

Results flagged for a closer look

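The difference between sgQKI+EV and sgNS+EV passed the limma test of the difference itself in 3 cases, all in comparisons of parts of the chase added after the data were seen. GAS5 changed by 0.31 from 0 to 4 h in sgQKI+EV and by −0.19 in sgNS+EV, a difference of 0.50 (adjusted p = 0.0475). SNHG5 changed by −0.36 from 4 to 8 h in sgQKI+EV and by 0.24 in sgNS+EV, a difference of −0.60 (adjusted p = 0.0265). SNHG16 changed by −0.61 and −0.26 over the same interval, a difference of −0.35 (adjusted p = 0.032). After quantile normalisation the SNHG16 difference was −0.04 and that of SNHG5 −0.35 (adjusted p 0.786 and 0.0925), while that of GAS5 was 0.40 (adjusted p 0.0461). Over the whole 8 h none of the 10 hosts differed in limma, with 1 at an unadjusted p under 0.05 (17% of all genes).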

How the results depend on the processing

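Each call was computed in the same limma model under each alternative that keeps its libraries. Leaving out both 4 h libraries of QKI7-WT gives no value for comparisons that use them. The filter on low values removed 0 genes, so testing without it is the same fit. A pseudocount of 0.1 left all 23 counts of hosts called within 1.5 times of those given above. The replicate numbers did not pair the libraries, judged by the correlation of their deviations, and a fit with replicate number as a block left 21 of 23 counts unchanged in that sense. It moved the count for the difference in the 0 to 4 h change, sgQKI+EV minus sgNS+EV, from 1 to 2 hosts and that for the 4 to 8 h change from 2 to 4.

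The scaling mattered most, since it moves the median of all genes. On the spike-in scale the following hosts fell, and the 2 other scalings turned them to log2 changes above 0. Over 0 to 8 h in sgNS+EV, quantile normalisation gave ZFAS1 (0.26), SNHG1 (0.18), SNHG5 (0.32), SNHG8 (0.077) and SNHG12 (0.14), and library totals gave ZFAS1 (0.23), SNHG1 (0.12), SNHG5 (0.18) and SNHG8 (0.095). In sgQKI+EV over those hours, quantile normalisation gave ZFAS1 (0.33), SNHG1 (0.17), SNHG5 (0.41), SNHG8 (0.23), SNHG12 (0.22) and SNHG15 (0.16), and library totals gave ZFAS1 (0.24), SNHG1 (0.067), SNHG5 (0.16) and SNHG8 (0.17). In sgQKI+QKI7-△KH over those hours, quantile normalisation gave ZFAS1 (0.21), SNHG5 (0.28), SNHG6 (0.32), SNHG8 (0.066), SNHG12 (0.19) and SNHG15 (0.1), and library totals gave ZFAS1 (0.15), SNHG5 (0.14), SNHG6 (0.35) and SNHG8 (0.062). In sgQKI+QKI7-WT over those hours, quantile normalisation gave ZFAS1 (0.29), SNHG1 (0.097), SNHG5 (0.36), SNHG8 (0.22), SNHG12 (0.26) and SNHG15 (0.11), and library totals gave ZFAS1 (0.24), SNHG1 (0.046), SNHG5 (0.16) and SNHG8 (0.19). Over 0 to 4 h in sgNS+EV, quantile normalisation gave ZFAS1 (0.097), SNHG1 (0.013) and SNHG6 (0.067), and library totals gave SNHG6 (0.063). In sgQKI+EV over those hours, quantile normalisation gave ZFAS1 (0.023) and SNHG12 (0.043). In sgQKI+QKI7-△KH over those hours, quantile normalisation gave SNHG12 (0.075). Over 4 to 8 h in sgNS+EV, quantile normalisation gave SNHG20 (0.041). In sgQKI+EV over those hours, quantile normalisation gave GAS5 (0.13), SNHG1 (0.17), SNHG5 (0.12), SNHG8 (0.18) and SNHG12 (0.17), and library totals gave GAS5 (0.12), SNHG1 (0.12), SNHG5 (0.038), SNHG8 (0.13) and SNHG12 (0.1). In sgQKI+QKI7-△KH over those hours, quantile normalisation gave ZFAS1 (0.053), SNHG1 (0.017) and SNHG8 (0.075), and library totals gave ZFAS1 (0.03) and SNHG8 (0.032). In sgQKI+QKI7-WT over those hours, quantile normalisation gave ZFAS1 (0.23), SNHG1 (0.16), SNHG6 (0.16), SNHG12 (0.21) and SNHG15 (0.099), and library totals gave ZFAS1 (0.23), SNHG1 (0.15), SNHG6 (0.19) and SNHG12 (0.069). Of all host values 43 turned under quantile normalisation and 28 with library totals, and by construction both scalings remove part of the common fall.

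Counts of hosts called moved with scaling, and so did their direction. From 0 to 8 h the deposited scale gave 0 higher and 8, 8, 9 and 8 lower in sgNS+EV, sgQKI+EV, QKI7-△KH and QKI7-WT. With library totals the count was 5 in each genotype, 3 higher and 2 lower, and quantile normalisation gave 5 higher and 2 lower, 5 and 1, 4 and 2, and 4 and 2. Of all 12547 genes, library totals gave 1200 to 1453 higher and 6611 to 7431 lower, depending on the genotype. Quantile normalisation gave 4161 to 4531 higher and 3381 to 3743 lower. From 0 to 4 h in sgNS+EV the count of hosts was 2 with quantile normalisation (2386 of all genes lower) and 4 with library totals (3188 of all genes lower), all lower. For the comparisons that follow, the numbers over all genes on these scales are not given, so the host counts are a description. From 4 to 8 h the count of hosts was 7 and 6 in sgNS+EV, all higher, where the deposited scale gave 2 lower. In sgQKI+EV it was 3, all higher, and 3, of which 2 were higher, where the deposited scale gave 7 lower. With QKI7-△KH it was 1 higher and 1 lower, where the deposited scale gave 5 lower. With QKI7-WT it was 6 higher with quantile normalisation and 4 higher and 1 lower with library totals, where the deposited scale gave 7 lower. For sgQKI+EV against sgNS+EV it was 2, both lower, and 0 at 0 h, 5 with quantile normalisation at 4 h (3 higher and 2 lower), and 1 and 1 at 8 h, both lower. For QKI7-WT against QKI7-△KH at 8 h it was 1 higher with quantile normalisation. For the difference between sgQKI+EV and sgNS+EV it was 2 and 2, all higher, in the 0 to 4 h change and 0 and 0 in the 4 to 8 h change.

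When only the groups compared entered the fit, the count was 9 from 4 to 8 h with QKI7-△KH, 6 for sgQKI+EV against sgNS+EV at 0 h, 1 for QKI7-WT against QKI7-△KH at 8 h, and 1, 4 and 5 for the difference between sgQKI+EV and sgNS+EV in the 0 to 8 h, 0 to 4 h and 4 to 8 h changes. Without both 4 h libraries of QKI7-WT, an alternative added after the data were seen, it was 4 from 4 to 8 h in sgNS+EV, 3 for sgQKI+EV against sgNS+EV at 0 h, 1 for QKI7-WT against QKI7-△KH at 0 h and 1 at 8 h, and 5 and 5 for the differences in the 0 to 4 h and 4 to 8 h changes. The cause of these moves was not tested.

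Leaving out 1 library at a time gave, in the order sgNS+EV, sgQKI+EV, QKI7-△KH and QKI7-WT, 6 to 8, 8 to 8, 8 to 9 and 6 to 8 hosts from 0 to 8 h, 6 to 9, 3 to 5, 4 to 5 and 2 to 7 from 0 to 4 h, and 1 to 3, 3 to 6, 2 to 5 and 4 to 10 from 4 to 8 h. For sgQKI+EV against sgNS+EV it gave 0 to 1 at 0 h, 1 to 2 at 4 h and 1 to 4 at 8 h, for QKI7-WT against QKI7-△KH 0 to 0, 0 to 4 and 0 to 0, and 0 to 0 for QKI7-WT against sgQKI+EV and for both differences in the 0 to 8 h change. It gave 0 to 1 for the difference in the 0 to 4 h change and 0 to 4 for that in the 4 to 8 h change. Among these, 4 h replicate 2 of QKI7-WT gave the 7 from 0 to 4 h and the 4 from 4 to 8 h in that genotype and the 4 against QKI7-△KH at 4 h. The 3 from 4 to 8 h in sgQKI+EV came without 4 h replicate 1 or 8 h replicate 2, the 3 from 0 to 4 h there without either 0 h library, the 1 from 4 to 8 h in sgNS+EV without 8 h replicate 2, the 2 with QKI7-△KH without 4 h replicate 2, and the 1 for sgQKI+EV against sgNS+EV at 8 h without sgNS+EV 8 h replicate 2. A group left with 1 library was assumed to vary like the others. The depth of the libraries is unknown, and with 2 libraries a group the median standard error was 0.106 log2 units (0.15 for differences between changes), which limits what could be seen.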

Other observations

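SCARNA16, the small Cajal body RNA whose gene lies inside SNHG20, was the 1 small RNA of the 36 inside the hosts with a row in the table. It was singled out after its values were seen. In sgNS+EV it was at 7.44 and 7.06 at 0 h, 9.98 and 15.1 at 4 h and 20.4 and 19.9 at 8 h, so that it rose while SNHG20 fell from 7.21 and 7.29 to 1.85 and 1.69. The log2 change over 8 h was 1.36 (SE 0.31, limma adjusted p = 0.000414). It also rose in sgQKI+EV, from 4.54 and 7.06 to 38.6 and 25.5 (2.28, SE 0.31), with QKI7-△KH from 4.56 and 6.45 to 32.6 and 58.0 (2.79, SE 0.31) and with QKI7-WT from 3.64 and 4.33 to 18.6 and 20.5 (2.05, SE 0.31). In every genotype the 0 h and 8 h libraries did not overlap. Among all genes 0.383 to 0.486% rose over 8 h. Such small RNAs carry no poly(A) tail as a rule, the libraries were made from poly(A) RNA, and the exons of both genes overlap in the annotation, so which molecules gave these values was not tested.

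Among the other noncoding hosts SNHG25 is described here, also singled out after its values were seen. Its change of 0.66 over 8 h in sgNS+EV (SE 0.36, limma adjusted p = 0.0932) was the highest value of the 15 but did not pass. Its log2 difference of sgQKI+EV against sgNS+EV at 8 h was −1.10 (SE 0.36, limma adjusted p = 0.0225), the lowest, where 34% of all genes were lower. Both standard errors were well above the median of 0.106 over all genes.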
